A study of Mus musculus with 16 samples.

Results

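The comparison described here set cultures of adult mouse neural stem cells that carried CreER against cultures that did not, with neither kind exposed to the ligand that activates CreER. It used the 8 vehicle arrays of a series of 16, chosen by their titles. Of these, 4 were of cultures with the genotype Tlx(f/Z;CreER), 2 collected at 36 h and 2 at 60 h after vehicle, and 4 were of cultures with the genotype Tlx(f/Z), again 2 at 36 h and 2 at 60 h. Both kinds thus carried the same Tlx(f/Z) alleles, and the labels name the CreER transgene as their only difference in genotype. The remaining 8 arrays were of the same 2 genotypes given 4-hydroxytamoxifen (4OHT, written 4OH-TM in the labels). They shared the estimate of the spread and served as a second set in which the 2 genotypes were compared, there with the activating ligand. Biological replicates is the term of the design text for the 2 arrays of a group, and it names no separate animals, derivations or dishes. The promoter that drives CreER, the number of lines per genotype, the passage and the strain are not given in the sources used here. A difference made by the transgene and a difference between 2 independently derived cultures therefore cannot be told apart, and the p-values below measure the spread between these arrays only.

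Adult neural stem cells are kept in culture as dividing, undifferentiated cells with growth factors, and they keep some of the patterning gene expression of the brain region they came from. Tlx, encoded by Nr2e1, is an orphan nuclear receptor that represses transcription and keeps these cells dividing. CreER is Cre recombinase fused to the ligand-binding domain of an estrogen receptor, which holds it outside the nucleus until 4OHT binds, so vehicle-treated CreER cultures serve as the untreated side of an induced deletion.

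Each array gave 1 linear signal per probe set, and all differences below are in log2(signal + 16) after quantile normalization of the 16 arrays, CreER minus no Cre, with the standard error (SE) of the fit. A gene was called higher or lower where its Benjamini-Hochberg adjusted p in the limma fit was under 0.05. The deposited median signal was 97.9 to 123 in CreER vehicle arrays and 112 to 133 in no-Cre vehicle arrays. Replicate arrays correlated at 0.989 to 0.991, arrays of 1 genotype at different times at 0.985 to 0.990, and arrays of different genotypes at 0.965 to 0.977. These are Pearson r of log2(signal + 16) in signals as deposited, over the 22626 probe sets that are not controls. The ratio of 5' to 3' signal of the actin control, a sign of RNA integrity and labelling, was 0.773 and 0.716 in CreER at 36 h, 0.882 and 0.862 in CreER at 60 h, 0.593 and 0.666 without Cre at 36 h, and 0.788 and 0.773 without Cre at 60 h. At each time both CreER arrays lay above both no-Cre arrays. The exact permutation test pooled the times (4 against 4 arrays, two-sided, p = 0.143, smallest possible 0.0286). The ratio also rose from 36 h to 60 h in both genotypes, so this p does not measure the difference within a time. The part of the actin ratio in the results was tested only as a covariate: 3209 genes were then called, against 4204 without it.

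The cultures differed widely but mostly by small amounts. Of 7618 genes tested, 4204 (55.2%) were called over both times, 2225 higher (29.2%) and 1979 lower (26.0%) in CreER cultures, with a median of 0.02 over all genes. The median absolute difference of the called genes was 0.34, and 79.2% of them differed by less than 1.5-fold. Only 285 genes (3.74%) were called and differed by at least 2-fold, 116 higher (1.52%) and 169 lower (2.22%). At 4-fold or more, 21 genes were higher and 45 lower. The 4 CreER arrays and the 4 no-Cre arrays did not overlap in 3128 genes (41.1%; CreER above in 21.4% and below in 19.7%), and in 284 of the 285 genes at least 2-fold apart. In signals as deposited, where array brightness differs, 2631 genes were called, 607 higher and 2024 lower, with a median of -0.13 over all genes. The balance of small calls between directions thus depended on the scaling, and single genes with small differences are best read relative to that shift.

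**Figure D1:**
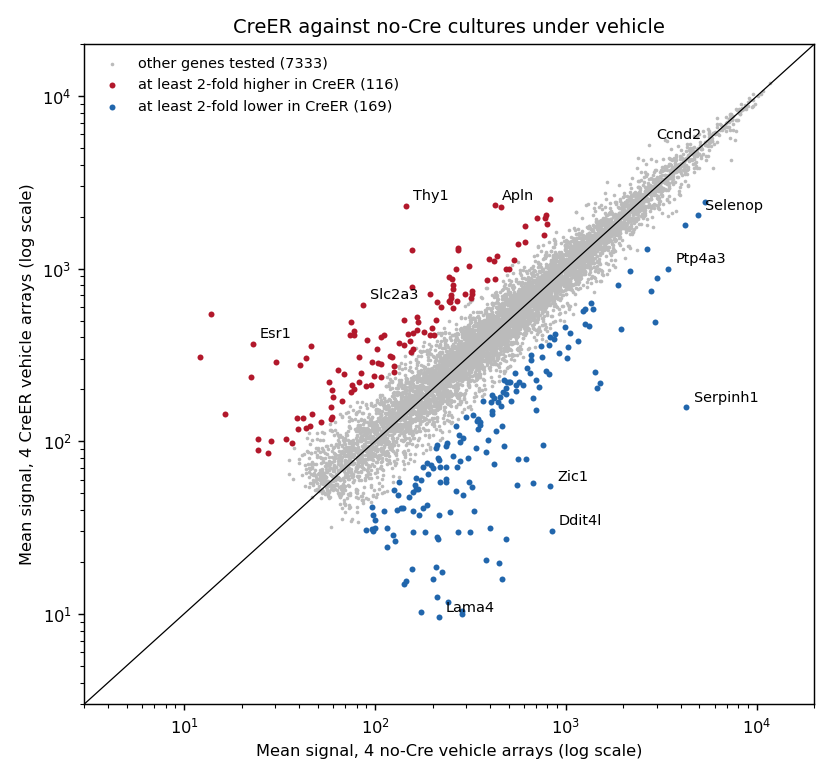
Mean signal of the 4 CreER vehicle arrays (vertical axis) against the 4 no-Cre vehicle arrays (horizontal axis), both log scale; each point is 1 of 7618 genes tested and the line marks equal signal. The 116 genes at least 2-fold higher and the 169 at least 2-fold lower in CreER lie on either side of a narrow band that holds the rest, with Thy1 and Serpinh1 far from it.

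Both kinds of culture carried the transcripts of neural stem and progenitor cells. The signals of Sox2, a transcription factor of neural stem cells, were 1876, 2137, 1723 and 1708 in CreER arrays (36 h replicates 1 and 2, then 60 h replicates 1 and 2, the order used throughout) and 1676, 1704, 1642 and 1638 without Cre. All 4 CreER arrays lay above the others, by a difference of only 0.15 ± 0.04 (SE, adjusted p = 0.00390). In signals as deposited the Sox2 difference was 0.01 and not called. Fabp7, a fatty acid binding protein of radial glia and stem cells, averaged 6158 and 6054, and its arrays overlapped. Vim was lower by a small amount (-0.22 ± 0.03). Nes, which encodes the intermediate filament nestin, had signals of 1797, 1809, 1775 and 1623 in CreER and 2875, 2981, 2862 and 2757 without Cre, a difference of -0.71 (adjusted p = 1.04e-08) on its brightest probe set and of 0.15 on the mean of its probe sets. Of the 19 measured members of the stem and progenitor list, 4 were higher and 8 lower, with a median of -0.02. The shares over all genes tested were 29.2% higher and 26.0% lower. The largest difference in the list was in Hmga2, a chromatin protein of fetal stem cells that declines with age, at 591, 660, 574 and 734 against 183, 195, 226 and 238 (1.53, adjusted p = 1.48e-09). The CreER arrays were about equal at both times and all far above the others. Sox9, a transcription factor of glial competence, was lower (-0.95).

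Markers of cells that a culture could also hold were mostly near the floor of the arrays. Of 15 microglia genes only Csf1r passed the filter, at 50.1 in CreER and 64.3 without Cre, and the summed signal of the 15 was 264 to 315 and 266 to 302 per array. Of 12 endothelial and mural genes only Acta2 passed the filter (0.55, adjusted p = 0.00495). None of the 3 ependymal genes with a probe set was tested. Of 12 fibroblast and meningeal genes 4 were tested and 3 were higher, namely Thy1, Fbln1 and Fn1, so their summed signal was 4206 to 4544 in CreER and 1167 to 1241 without Cre. The defining collagens of that list, Col1a1, Col1a2 and Col3a1, averaged 20.9, 30.5 and 20.3 in CreER and 20.6, 25.2 and 24.3 without Cre, under the filter signal of 51.4. The sex-linked list gave no large difference: the Y-linked Eif2s3y averaged 229 in CreER and 244 without Cre, and Xist averaged 41.8 and 28.0, under the filter, in cultures of both genotypes.

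The genes highest in CreER cultures included surface and secreted proteins. Thy1, a glycoprotein anchored in the membrane of neurons, T cells and fibroblasts, had signals of 2467, 2518, 2167 and 2075 in CreER and 161, 121, 157 and 139 without Cre, a difference of 3.86 ± 0.07 (adjusted p = 5.68e-15). No array came near those of the other genotype. Apln, the secreted ligand of the apelin receptor, followed the same pattern, at 2184, 2237, 2454 and 2448 against 385, 456, 445 and 405 (2.42 ± 0.05). Clec14a and Cd93, related C-type lectin domain proteins best known from endothelium, were higher by 2.75 and 2.27, while the endothelial list beside them stayed near the floor (summed signal 263 to 323 in CreER and 193 to 248 without Cre, over 12 genes). In CreER, Cd93 was at 348 and 354 at 36 h and at 506 and 534 at 60 h, so its CreER signal was higher at 60 h. Slc6a6, the taurine transporter, was at 407, 462, 564 and 530 against 72.7, 86.0, 64.6 and 74.6 (2.48). Slpi, a secreted protease inhibitor, was higher by 2.35, and Gdpd3, a lysophospholipase, by 2.74. The other genes of the 15 largest were AI506816 (4.27), Paip1 (3.52), Esr1 (3.32), Gm6958 (2.89), Slc2a3 (2.57), Egln3 (2.53), Epb41l4a (2.43) and Esx1 (2.31). Paip1, a partner of the poly(A)-binding protein, rests on the probe set used: its other probe set was lower (-1.16), and with a pseudocount of 4 the value of the gene was -1.36.

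Esr1, the estrogen receptor alpha gene, had signals of 379, 409, 354 and 326 in CreER and 12.9, 29.7, 22.2 and 26.7 without Cre. All no-Cre arrays lay under the filter signal, and the difference was 3.32 ± 0.13 (adjusted p = 1.26e-11). CreER carries an estrogen receptor domain, and whether this probe set reads the transgene, the endogenous gene or both cannot be told apart here. All 4 arrays titled CreER lay above all 4 titled without it, and 41.1% of all genes tested likewise had no overlap between genotypes. Since the source of the Esr1 signal is not known, this does not check the labels. Of 9 measured genes of a list of estrogen receptor responses, 3 were higher and 3 lower (median 0.03), among them Stc2 (0.95) and Cited2 (-0.61). The shares over all genes tested were 29.2% higher and 26.0% lower.

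The genes lowest in CreER cultures included a collagen chaperone, a laminin and a Zic factor. Serpinh1, which encodes the collagen chaperone HSP47, had signals of 154, 154, 155 and 171 in CreER and 4167, 4249, 4423 and 4243 without Cre. This was the largest difference of all, -4.62 ± 0.07 (adjusted p = 3.37e-16), equal at both times, and a second probe set gave -4.63. Ddit4l, an inhibitor of mTOR signalling, was at 35.7, 35.5, 30.9 and 19.2 against 945, 903, 758 and 763 (-4.22). Here all CreER arrays lay under the filter signal, so the size of the difference depends on the pseudocount. The same held for Tmlhe (-4.02), an enzyme of carnitine synthesis, Sil1 (-3.71), the exchange factor of the chaperone BiP, Cd200 (-3.53), an immunoglobulin-like membrane protein, and Lama4 (-3.18), a laminin chain at 13.3, 9.31, 9.15 and 6.38 against 226, 196, 239 and 200. Cryab, a small heat-shock protein, was lower by 3.06 and varied more in CreER (49.0, 85.1, 61.9 and 26.2) than without Cre (574, 483, 582 and 572). The other genes of the 15 largest falls were Zic1 (-3.57), Ccl9 (-3.54), Armcx1 (-3.53), Syt9 (-3.46), B9d1 (-3.29), Tcim (-3.25), Itm2a (-3.15) and Mfsd10 (-3.01). Over all genes at least 2-fold apart, 15 of the 116 higher genes had every no-Cre array under the filter signal, and 39 of the 169 lower genes had every CreER array under it.

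**Figure D2:**
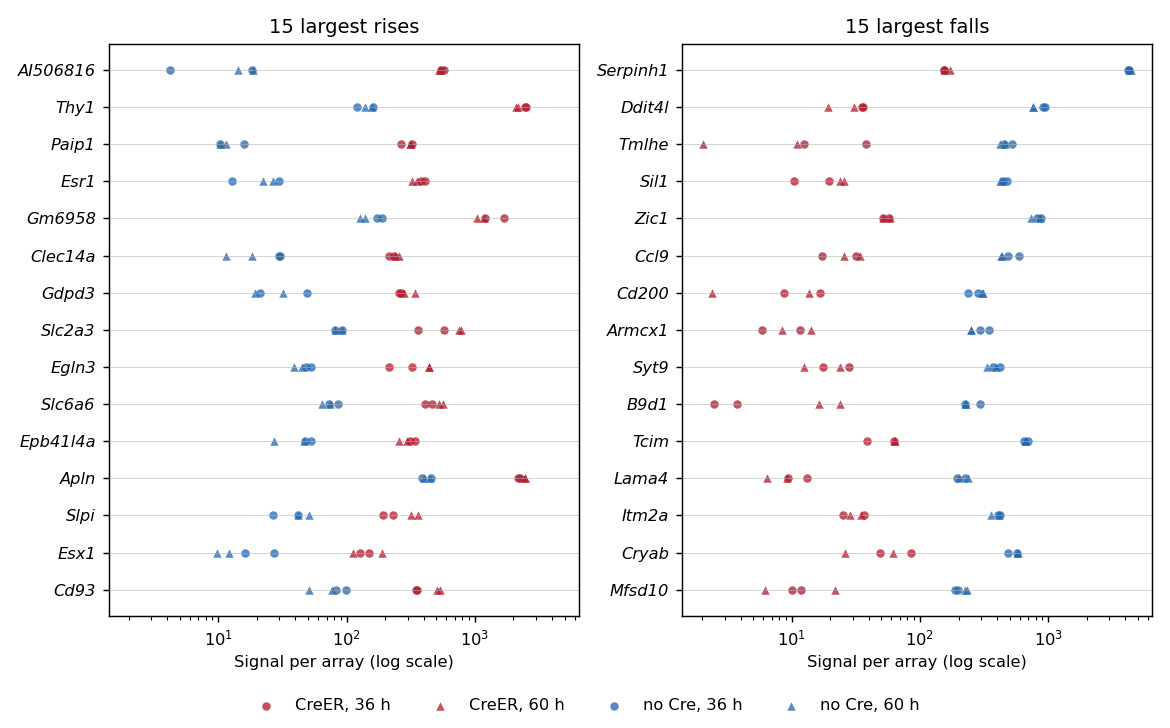
Signal of each vehicle array (horizontal axis, log scale) for the 15 genes most raised and the 15 most lowered in CreER cultures; colour gives the genotype and shape the time, with 2 arrays per symbol. The rule that chose these 30 genes required all 4 CreER arrays to lie on 1 side of the 4 no-Cre arrays. Serpinh1, at 154 to 171 against 4167 to 4423, is the widest split.

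Where genes had more than 1 probe set, the large differences were mostly repeated. Of 140 other probe sets for 101 of the genes at least 2-fold apart, 126 were called in the same direction, 12 were not past the threshold and 2 were called in the opposite direction. The opposite ones belonged to Paip1 and to Esco1 (1.01 on the probe set used and -0.53 on the other). Clu gave 1.82, 2.21 and 2.51 on its other 3 probe sets, against 2.21 on the one used.

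Bright genes, read with the least relative error, also differed. Ccnd2, the cyclin D2 gene that drives entry into S phase, was at 5184, 5207, 5125 and 5324 in CreER and 2523, 2764, 2754 and 2810 without Cre (0.94 ± 0.03, adjusted p = 2.40e-12). Its paralogue Ccnd1 went the other way, at 5678, 5743, 5733 and 5818 against 7209, 7304, 7044 and 7378 (-0.33 ± 0.02). For both cyclins the genotypes did not overlap. Selenop, a secreted selenium carrier, was at 2023, 1993, 2052 and 2058 against 4926, 4821, 5045 and 4810 (-1.26). Akap12, a scaffold for protein kinase A, was lower by 1.23 on the log2 scale, and Crip2, a LIM domain protein, by 1.13. Tcf12, a helix-loop-helix transcription factor, differed by -0.81. Fam162a (0.93), Mt1 (0.86), Sdc3 (0.78) and Pttg1 (0.74) were the other bright genes with the largest rises. In Fam162a and Mt1, replicate 2 at 36 h was the lowest of the CreER arrays (2392 and 3350).

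Genes of glycolysis and of the response to low oxygen were mostly higher in CreER cultures. Of 23 measured members 19 were higher and 2 lower, with a median of 0.44 against 0.02 over all genes and a background of 29.2% higher, and 7 were at least 2-fold higher. In signals as deposited 12 were higher and 1 lower, and with arrays scaled to a common median 20 and 1. In cells, the hypoxia-inducible factors bind a short core motif, RCGTG, and switch on glucose transporters, glycolytic enzymes and their own regulators. The promoters of 4 of the genes that were at least 2-fold higher, all with the motif, are shown to let it be seen. Those of Pdk1 and Vegfa, also at least 2-fold higher, are not shown. Both genes had a promoter with the motif and another without it. Each sequence shown is the 250 bases before a RefSeq start on GRCm38.p6, with every ACGTG and GCGTG on either strand in capitals (a match on the other strand reads CACGT or CACGC, and overlapping matches such as CACGTG run together).

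Bnip3 promoter, chr7:138909507-138909756, minus strand: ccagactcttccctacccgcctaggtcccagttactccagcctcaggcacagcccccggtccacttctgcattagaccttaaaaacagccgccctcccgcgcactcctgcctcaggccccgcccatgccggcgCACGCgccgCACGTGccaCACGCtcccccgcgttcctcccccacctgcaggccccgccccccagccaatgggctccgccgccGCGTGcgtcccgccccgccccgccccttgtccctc

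Egln3 promoter, chr12:54203875-54204124, minus strand: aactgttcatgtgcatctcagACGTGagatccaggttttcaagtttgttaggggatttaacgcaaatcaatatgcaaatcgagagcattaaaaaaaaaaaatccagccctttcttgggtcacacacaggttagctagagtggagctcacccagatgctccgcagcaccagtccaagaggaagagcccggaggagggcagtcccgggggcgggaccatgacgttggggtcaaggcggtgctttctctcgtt

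Slc2a1 promoter, chr4:119108495-119108744, plus strand: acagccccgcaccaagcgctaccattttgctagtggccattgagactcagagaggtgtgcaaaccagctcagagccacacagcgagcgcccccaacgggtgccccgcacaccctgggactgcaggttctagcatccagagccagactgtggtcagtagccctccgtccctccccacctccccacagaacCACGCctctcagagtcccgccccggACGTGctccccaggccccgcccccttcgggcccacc

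Adm promoter, chr7:110627407-110627656, plus strand: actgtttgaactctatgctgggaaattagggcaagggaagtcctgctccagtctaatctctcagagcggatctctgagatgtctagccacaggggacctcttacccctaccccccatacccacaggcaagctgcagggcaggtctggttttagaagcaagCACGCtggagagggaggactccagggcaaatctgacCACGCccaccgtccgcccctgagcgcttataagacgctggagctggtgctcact

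Of the 19 list genes that were higher, 17 had a RefSeq promoter and 16 of these held at least 1 of the 2 motifs. The exception was Tpi1. A gene with several promoters was counted if any 1 of them matched, and the share of genes was not counted over all genes tested. Counted over promoters, 21 of 27 held either motif (77.8%), against 58.4% of 8159 promoters of the genes tested and 38.6% of all 32851 promoters of the same length. For ACGTG alone the shares were 48.1%, 22.5% and 16.6%, and for GCGTG alone 55.6%, 47.0% and 28.2%. Promoters of 1 gene can overlap, as in Aldoa and Pfkm, so the same match could count more than once in these shares. The list was chosen for glycolysis and the response to low oxygen, so its share of motifs may follow from that choice. List genes that were not higher were not counted. The match is a description of these letters and no binding was measured.

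The members with the largest differences covered uptake of glucose, its diversion from the mitochondria and signalling to vessels. Slc2a3, the glucose transporter GLUT3, was at 577, 359, 774 and 758 in CreER and 91.9, 80.8, 92.0 and 81.7 without Cre (2.57 ± 0.12). Slc2a1, the transporter GLUT1, was at 647, 605, 745 and 704 against 291, 247, 250 and 218 (1.37). Pdk1, which shuts pyruvate out of the citric acid cycle, was higher by 1.76, and the hexokinase Hk2 by 1.0. Bnip3, a mitochondrial protein of mitophagy, was at 1239, 717, 1567 and 1717 against 295, 284, 265 and 239 (2.14 ± 0.13). Egln3, a prolyl hydroxylase that marks hypoxia-inducible factors for degradation, was at 325, 215, 440 and 441 against 53.1, 48.5, 45.2 and 38.8 (2.53 ± 0.13). The secreted factors Vegfa and Adm were higher by 1.40 and 1.49. In each of these genes all CreER arrays lay above all no-Cre arrays, and replicate 2 at 36 h was the lowest of the CreER arrays. Without that array 19 members were still higher and 2 lower. Bright enzymes of the pathway were divided. Tpi1, triosephosphate isomerase, had the smallest p of the list, at 5333, 5035, 5853 and 5678 against 3334, 3315, 3356 and 3512 (0.69 ± 0.03, adjusted p = 5.48e-11), and Aldoc, an aldolase, averaged 4338 and 3220 (0.42). In both the CreER arrays lay above all others. Pgk1, phosphoglycerate kinase, averaged 7350 and 7116 with overlapping arrays (0.05, adjusted p = 0.425), but was called with arrays scaled to a common median (0.20) and with the mean of its probe sets (0.19). Ldha differed by 0.08. The 2 lower members were Ldhb, the other lactate dehydrogenase subunit, which averaged 1143 and 1481, and Pkm, pyruvate kinase, which averaged 6592 and 6979 (-0.08) and was not lower with arrays scaled to a common median (0.06). At 60 h 19 members were higher, and the difference between times passed the threshold for Hk1 (0.41), Adm (0.73) and Vegfa (0.74), all larger at 60 h. That of Hk1 lost its call in signals as deposited, with arrays scaled to a common median and with the mean of probe sets (0.26). It also did so without any of 6 single vehicle arrays (0.36 to 0.43). The changes of Adm and Vegfa were not examined in these settings.

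Regional patterning genes were divided by genotype. These homeobox and zinc-finger factors mark where along the neural tube a cell arose. Zic1 was at 51.7, 57.0, 58.5 and 51.4 in CreER and 819, 873, 737 and 870 without Cre (-3.57 ± 0.12, adjusted p = 5.14e-12). En2, which patterns midbrain and cerebellum, was at 30.4, 25.7, 37.6 and 25.2 against 180, 174, 179 and 200 (-2.13). Irx2, Irx3 and Irx5, Iroquois homeobox genes, were lower by 1.65, 0.76 and 0.55 on the log2 scale. Meis2, a homeobox gene of the striatum and subventricular zone, went the other way, at 278, 250, 229 and 227 against 71.8, 72.8, 63.6 and 65.5 (1.63). None of these genes overlapped between genotypes, and none of their differences changed between times by the test. Of 9 measured genes of the midbrain, hindbrain and Zic list, 5 were lower and 1 higher, with a median of -0.55. Among all genes tested 26.0% were lower and 29.2% higher. Pax3 and Irx1, under the filter over all arrays, averaged 14.2 ± 12.8 and 18.5 ± 7.52 in CreER and 55.4 ± 6.80 and 64.3 ± 8.51 without Cre (SD, n = 4). In the forebrain lists Pax6, of dorsal progenitors, was lower (-0.45) and Foxp1 was higher (0.49). Of the 3 measured dorsal genes 2 were lower and 0 higher, and of the 3 ventral genes 1 was higher and 0 lower. Dlx1, Dlx2 and Gsx2 were under the filter.

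Extracellular matrix genes differed in both directions. Of 27 measured members 13 were lower and 6 higher (median -0.12), beside 26.0% lower and 29.2% higher of all genes, 5 and 3 of them by at least 2-fold. Col5a2, a fibrillar collagen chain, was at 215, 213, 203 and 179 in CreER and 1554, 1383, 1420 and 1454 without Cre (-2.75 ± 0.05, adjusted p = 5.68e-15). Fbln2, a matrix glycoprotein, was at 434, 364, 588 and 580 against 2656, 2760, 3176 and 3172 (-2.56). Its family member Fbln1 was at 999, 1092, 1055 and 1002 against 272, 335, 308 and 327 (1.69), so the 2 fibulins were split between the cultures. The basement membrane chains Col4a1 and Lama4 were lower (-0.73 and -3.18). Vcan, a proteoglycan of progenitors, was lower by 0.44 at 36 h and by 1.14 at 60 h on the log2 scale, and this change with time passed the threshold (adjusted p = 7.44e-04). In the adhesion list 7 of 25 measured members were higher and 8 lower. Itga6, the laminin receptor subunit alpha 6, was at 1121, 1049, 1186 and 1203 against 408, 382, 401 and 390 (1.49), while its partner Itgb1 was lower (-0.47). Cd44, the hyaluronan receptor, was higher (1.36) and Cdh10, a neural cadherin, lower (-2.14).

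Glial and neuronal genes differed in both directions, beside 29.2% higher and 26.0% lower of all genes tested. Gfap, the filament of mature astrocytes, was under the filter in both cultures (37.5 and 30.8 on average). Clu, a secreted chaperone of astrocytes, was at 636, 745, 835 and 920 in CreER and 147, 152, 147 and 178 without Cre (2.21 ± 0.10). Gja1, the gap junction protein connexin 43, was the reverse, at 25.0, 33.7, 33.7 and 26.6 against 144, 163, 169 and 159 (-1.94), and S100b was lower too (-1.30). Aldh1l1, an astrocyte folate enzyme, was higher by 1.22. Of 12 measured astrocyte genes 6 were higher and 5 lower (median 0.18). Among 9 measured neuronal genes 5 were higher and 3 lower (median 0.55). Gap43, a growth cone protein, was at 407, 410, 360 and 362 against 86.0, 97.5, 94.1 and 86.2 (1.90), and Syt1, a synaptic vesicle protein, at 53.5, 35.3, 40.3 and 41.6 against 203, 169, 189 and 185 (-1.79). The genotypes were apart in both, in opposite directions. Defining neuronal genes Tubb3, Dcx and Rbfox3 were under the filter. Of 6 measured oligodendrocyte lineage genes only Nkx2-2 was higher (0.25) and 0 were lower.

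Signalling genes also split within families. Their counts stand beside 29.2% higher and 26.0% lower of all genes tested, and no list was tested against those shares. Of 18 measured Wnt pathway genes 7 were higher and 5 lower (median -0.06). Wnt7b was at 592, 541, 693 and 761 in CreER and 191, 202, 282 and 298 without Cre (1.37 ± 0.07), and Wnt7a was higher by 0.90. The Wnt4 ligand was at 43.6, 72.8, 69.0 and 56.5 against 248, 205, 243 and 238 (-1.72). Lgr5, a receptor that potentiates Wnt signals, was higher by 1.31 and the effector Tcf7l2 lower by 0.71 on the log2 scale. Of 14 measured BMP and TGF-beta genes 6 were higher and 5 lower. The ligand Bmp7 was at 356, 429, 473 and 495 against 209, 165, 141 and 150 (1.32), and the receptor Tgfbr2 at 413, 396, 423 and 447 against 940, 895, 825 and 826 (-1.03). Their targets Id1 and Id3 moved apart (1.41 and -0.31). Ntrk2, the receptor of brain-derived neurotrophic factor, was at 1710, 1619, 1880 and 1800 against 598, 501, 711 and 639 (1.50), in a growth factor list with 8 of 17 members higher and 4 lower. Of 16 Notch pathway genes 6 were higher and 4 lower, with the ligands Jag1 higher (0.75) and Dll1 lower (-0.71) and the target Hes1 higher (0.53). Of 6 measured Hedgehog genes 2 were higher and 3 lower, including the receptor Ptch1 (-0.45).

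Immune, stress and metabolic lists are set here against the background of 29.2% higher and 26.0% lower, and their higher counts depended on the scaling. Of 14 measured antigen presentation and interferon genes 6 were higher and 0 lower, led by Ifitm3, an antiviral membrane protein, at 1803, 2050, 2142 and 2148 in CreER and 801, 789, 771 and 781 without Cre (1.35 ± 0.04). H2-K1, a class I heavy chain, was higher by 0.87, and B2m, its shared light chain, was not called (0.05, adjusted p = 0.397). In signals as deposited 3 were higher and 1 lower. Of 27 measured integrated and ER stress genes 16 were higher and 5 lower, and 8 and 5 as deposited. Cebpb, a transcription factor of that response, was at 392, 453, 421 and 536 against 206, 210, 171 and 204 (1.12). Asns, asparagine synthetase, was higher by 0.69 and Xbp1 lower by 0.48 on the log2 scale. Of 24 glutathione and NRF2 genes 10 were higher and 7 lower (median -0.01), of 18 sterol synthesis genes 7 and 3 (median 0.06), and of 18 immediate early genes 10 and 6 (median 0.15). As deposited 4, 0 and 4 genes of these lists were higher. Klf4, a growth-arrest transcription factor in the last of these, was at 134, 171, 168 and 128 against 443, 398, 382 and 421 (-1.37). Of 10 imprinted genes 6 were lower and 2 higher. Ndn, an imprinted growth suppressor, was at 180, 162, 142 and 123 against 751, 686, 680 and 656 (-2.09), Plagl1 differed by -1.08 and Mest by 0.62. Of 9 mesenchymal and neural crest factors 3 were higher and 1 lower, of 7 retinoid genes 1 and 2, and of 7 sex-linked genes 2 and 3.

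**Figure D3:**
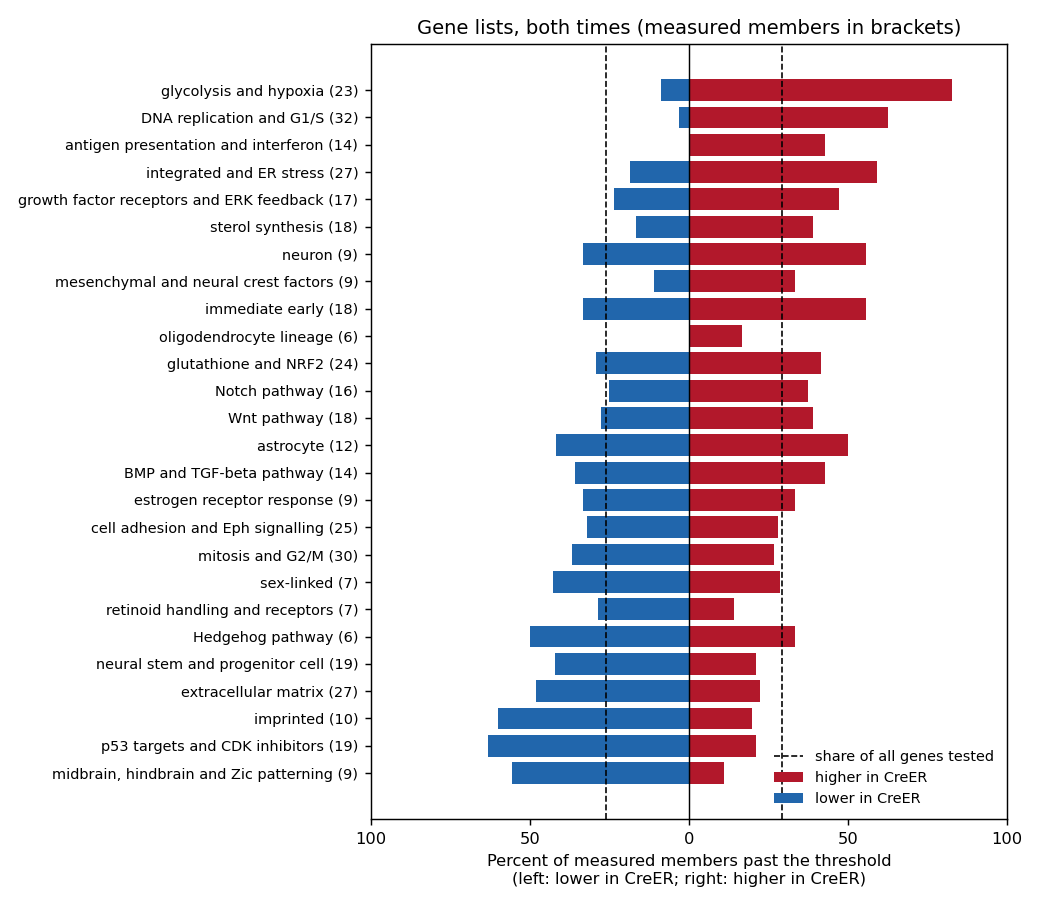
Percent of measured members called higher (red, to the right) or lower (blue, to the left) in CreER cultures for the 26 lists with at least 5 measured members; dashed lines mark the shares of all genes tested, 29.2% higher and 26.0% lower. Glycolysis and hypoxia is at the top with 19 of 23 members higher, and the midbrain, hindbrain and Zic list at the bottom is shown with 5 of 9 lower.

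Targets of p53 and inhibitors of cyclin-dependent kinases were lower in 12 cases and higher in 4. Of 19 measured members 12 were lower and 4 higher (median -0.28), beside 26.0% lower and 29.2% higher of all genes. Cdkn1a, the p21 gene, was at 1589, 1513, 1764 and 1483 in CreER and 1873, 2106, 2503 and 2163 without Cre (-0.44), and Ccng1 (-0.81), Trp53inp1 (-0.98) and Mdm2 (-0.52) were lower with it. Gadd45g, a growth arrest gene, was at 71.6, 64.8, 101 and 82.7 against 333, 317, 293 and 290 (-1.77). Its family member Gadd45a was at 1219, 1269, 1106 and 1109 against 462, 457, 392 and 430 (1.40), so the 2 Gadd45 genes lay on opposite sides. Cdkn2b, the p15 gene, was higher (1.59) and Cdkn1b, the p27 gene, was higher (0.53). Cdkn2a, the neighbour of Cdkn2b, averaged 22.2 ± 7.14 in CreER and 78.6 ± 5.74 without Cre (SD, n = 4) and was under the filter, so it was not tested.

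In cell division genes the contrast changed with time. Of 32 measured DNA replication and G1/S genes 20 were higher and 1 lower over both times, by a median of only 0.19. At 36 h 23 were higher and 1 lower (median 0.34), and at 60 h 7 and 2 (median 0.05). Among all genes tested, 29.2% were higher and 26.0% lower over both times. The shares were 21.0% and 20.0% at 36 h, and 23.4% and 20.8% at 60 h. Cdt1, which loads the replicative helicase, was higher at each time, at 1687, 1769, 1728 and 1679 in CreER and 1147, 1065, 1145 and 1067 without Cre (0.63). As deposited, 3 of these genes were higher and 1 lower over both times. Of 30 measured mitosis and G2/M genes 11 were higher and 2 lower at 36 h (median 0.16), and 0 higher and 16 lower at 60 h (median -0.26); as deposited the median at 36 h was -0.08, the opposite sign. The difference between times was negative and past the threshold for 16 of the 30, against 1.52% of all genes tested.

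Smc4, a condensin subunit that compacts chromosomes, had signals of 1541 and 1442 at 36 h and 749 and 837 at 60 h in CreER, and of 1303, 1448, 1369 and 1419 without Cre. The no-Cre arrays stayed level while the CreER arrays at 60 h were lower than any other array, a change between times of -0.92 ± 0.11 (adjusted p = 4.56e-04). Top2a, the topoisomerase of dividing cells, was at 2798 and 2710 and then 1680 and 1751 in CreER, and at 3259, 3150, 2872 and 2870 without Cre (-0.52). Mki67, which encodes the proliferation antigen Ki-67, was at 2461, 2417, 1463 and 1721 against 2411, 2731, 2568 and 2545 (-0.61). Aurka, a mitotic kinase, crossed from higher at 36 h (0.56) to a difference of -0.11 at 60 h. Among replication genes the change between times passed the threshold for 5, among them Pola1 (-0.87) and Rrm1 (-0.51). Ccnb2, cyclin B2, was lower at each time (-0.66 and -0.88). The count of 16 mitosis genes was 0 in signals as deposited, 10 with arrays scaled to a common median, 10 with the mean of all probe sets, 9 without the trend, and 10, 10 and 9 without CreER 36 h replicate 2, no-Cre 36 h replicate 1 and no-Cre 60 h replicate 1. The 5 replication genes were 0 in signals as deposited, 2 with arrays scaled to a common median, and 2 to 4 when any 1 vehicle array was left out.

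**Figure D4:**
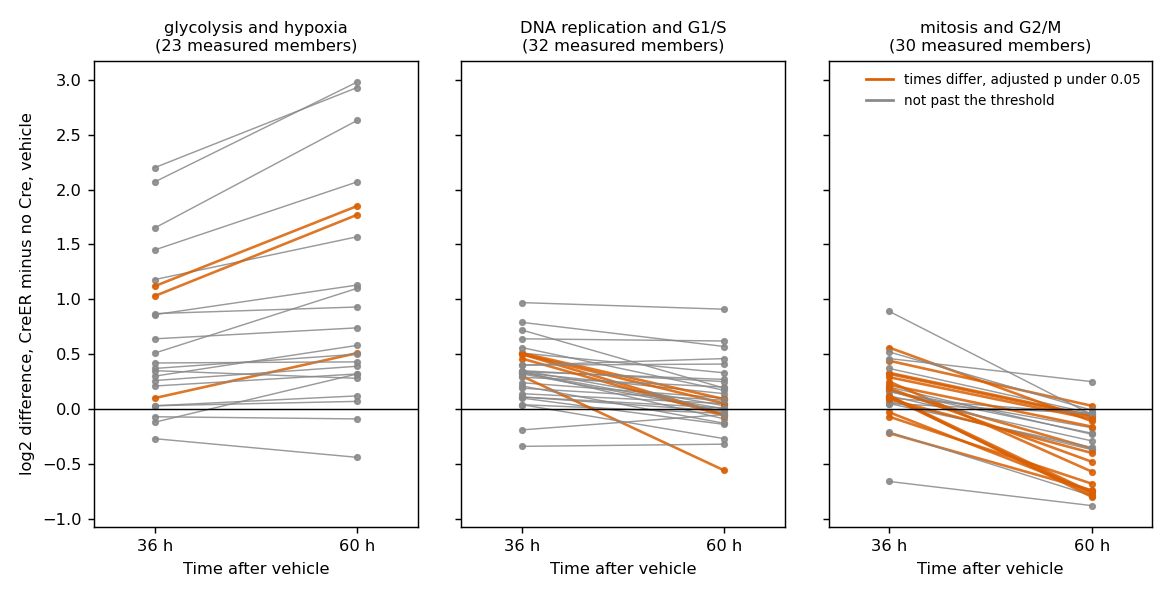
log2 difference between CreER and no-Cre cultures under vehicle at 36 h and 60 h (vertical axis), 1 line per measured member of 3 lists; orange lines mark members whose difference changed between times with an adjusted p under 0.05. Of 23 glycolysis and hypoxia members 17 were called higher at 36 h and 19 at 60 h, with 3 orange lines going up, while 16 of 30 mitosis members have orange lines going down.

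Over all genes tested, the lists included, the calls at the 2 times overlapped in part. At 36 h 3129 genes (41.1%) were called, 1603 higher (21.0%) and 1526 lower (20.0%), and at 60 h 3368 (44.2%), 1782 higher (23.4%) and 1586 lower (20.8%). The times shared 1122 higher genes (70% of the list at 36 h and 63.0% of that at 60 h) and 1086 lower genes (71.2% and 68.5%), and 30 genes were called in opposite directions. The differences correlated at 0.86 (Pearson) and 0.76 (Spearman) across the 7618 genes, which are not independent replicates; the times share no array but share the cultures and the normalization. A difference between times was called for 179 genes (2.35%), 63 higher (0.827%) and 116 lower (1.52%) at 60 h, and for 17 of the 285 genes at least 2-fold apart. In signals as deposited 16 genes were called, 12 higher and 4 lower, and with arrays scaled to a common median 81, 27 higher and 54 lower. Leaving out 1 vehicle array gave 107 and 75 without CreER 36 h replicates 1 and 2, 116 and 91 without CreER 60 h replicates 1 and 2, 54 without no-Cre 36 h replicate 1, and 61 and 80 without no-Cre 60 h replicates 1 and 2.

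The genes with the largest change between times included muscle-type isoforms and stress genes. Eno3, the muscle enolase, was at 56.8 and 69.6 at 36 h and 170 and 148 at 60 h in CreER, and at 47.8, 56.6, 30.2 and 46.1 without Cre (change 1.50 ± 0.25, adjusted p = 0.00610). Cox6a2, a cytochrome oxidase subunit of muscle, did the same (85.9, 81.5, 260 and 246 against 96.4, 71.0, 98.5 and 75.5; change 1.38). In both genes the CreER arrays at 60 h stood above all others. The ER chaperones Pdia4, at 729, 695, 1364 and 1358 against 782, 624, 648 and 644 (change 1.03), and Sdf2l1 (1.02) had a larger difference at 60 h, and Hsp90b1 and Pdia6 of the same list changed by 0.53 and 0.66. With the mean of probe sets the changes of Pdia4 (0.58) and Pdia6 (0.18) lost their calls, as did that of Pdia4 without no-Cre 36 h replicate 1 (0.87), and those of Hsp90b1 and Pdia6 did in signals as deposited. The differences of Chac1, Slc7a5, Mthfd2 and Atf4, of the amino acid branch of the stress response, went the other way, by -1.12, -0.77, -0.64 and -0.38. Of these, Chac1, Mthfd2 and Atf4 lost their calls in signals as deposited (-0.97, -0.46 and -0.20). Atf4 also lost its call with arrays scaled to a common median, with the mean of probe sets (-0.12) and without the trend. The change of Slc7a5 was not examined in these settings. Chac1, a glutathione-degrading enzyme, was at 395, 394, 165 and 149 in CreER and 218, 233, 221 and 189 without Cre. It was thus high in CreER at 36 h and low at 60 h. Klf2 (1.08) and A2m (1.28) also changed upwards, and Arid5a (-1.83), Triap1 (-1.56), Cit (-1.20), Kcnd3 (-1.09) and Erf (-1.04) downwards. Several of these calls were close to the threshold: A2m (adjusted p = 0.0493) lost its call with the 8 vehicle arrays alone and fell to 0.80 without CreER 36 h replicate 2. Cit and Erf lost theirs with the mean of probe sets (-0.54 and -0.64), and Triap1, Kcnd3 and Klf2 without any of 6, 4 and 2 single vehicle arrays. For Kcnd3 it was the no-Cre arrays that changed most, from 42.9 and 46.2 to 190 and 170.

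The contrast between genotypes under 4OHT, on arrays that the vehicle contrast did not use, kept most of the large differences. Since 4OHT activates CreER in 1 genotype only, this contrast also holds any effect of the induced deletion. A baseline difference and such an effect cannot be told apart within it. Of the 116 genes at least 2-fold higher under vehicle 114 were called higher under 4OHT, and of the 169 lower genes 162 were called lower. Under 4OHT 55.9% of genes were called, 27.7% higher and 28.2% lower. Of all vehicle calls, 1451 of 2225 higher genes (65.2%, and 68.7% of the 2111 genes higher under 4OHT) and 1387 of 1979 lower genes (70.1%, and 64.5% of 2151) were shared, and 88 and 76 were called the other way. The differences correlated at 0.85 (Pearson) and 0.73 (Spearman) across genes, with cultures and normalization shared. The difference between treatments itself was called for 1463 genes (19.2%), 690 with a higher (9.06%) and 773 with a lower contrast (10.1%) under 4OHT, and for 27 of the 116 and 60 of the 169. As deposited 116 were higher and 62 lower, and scaled to a common median 425 and 771.

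Several genes low in CreER cultures under vehicle were less low, or higher, under 4OHT. Cryab differed by -3.06 under vehicle and by -1.17 under 4OHT (change 1.89 ± 0.25, adjusted p = 1.04e-04). Ptp4a3, a tyrosine phosphatase, was at 802, 883, 1237 and 1078 in CreER and 3306, 3322, 3521 and 3545 without Cre under vehicle (-1.78), and differed by only -0.26 under 4OHT. Igfbp5, an insulin-like growth factor binding protein, went from -1.52 to 0.14, and Cox8b, a cytochrome oxidase subunit, from -1.83 to -0.19. Pygm, muscle glycogen phosphorylase, and Gsn, the actin-severing gelsolin, turned from lower (-0.72 and -0.85) to higher (1.03 and 0.73). Genes whose contrast was lower under 4OHT included Car3, a carbonic anhydrase (-0.79 and -1.93), and Blm, the Bloom helicase (0.14 and -0.77). Crb3, Spata5, Lrr1 and Serinc4 changed by -1.0, -0.97, -0.94 and -0.90. Among lists, replication genes went from 20 higher and 1 lower under vehicle to 2 higher and 26 lower, with the difference past the threshold for 29 of 32 in that direction. The p53 and CDK inhibitor genes went from 4 higher and 12 lower to 10 and 4. Of the 23 glycolysis and hypoxia genes 19 were higher and 0 lower under 4OHT, with the difference between treatments past the threshold for 2 upwards and 3 downwards, and the midbrain, hindbrain and Zic list again had 1 higher and 5 lower members.

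**Figure D5:**
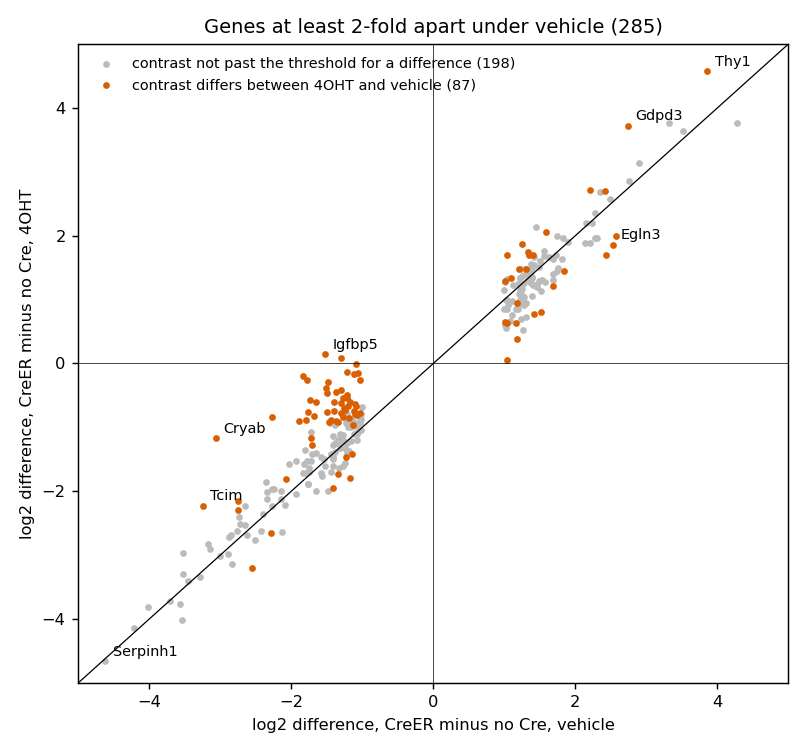
log2 difference between CreER and no-Cre cultures under 4OHT (vertical axis) against vehicle (horizontal axis) for the 285 genes at least 2-fold apart under vehicle; orange points are the 87 whose contrast differed between treatments, and the diagonal marks equal differences. The orange points are 27 of the 116 higher genes and 60 of the 169 lower genes. Cryab and Igfbp5, among the lower genes, lie above the diagonal.

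Neighbouring genes were examined for shared direction, using gene order in the RefSeq table for 7611 of the tested genes. There were 122 runs of at least 4 neighbours called in 1 direction, the longest of 8 genes. With 29.2% of all genes tested called higher and 26.0% lower, some runs arise whatever the gene order. Their expected number was not counted, so the 122 is a description only. Of these runs, 3 held at least 2 genes that were 2-fold apart. Thy1 lay in a run of 6 higher genes with Oaf (0.88), Usp2 (0.45), Rnf26 (0.26), Cbl (0.35) and Nlrx1 (1.20). Adm lay in a run of 4 with Sbf2 (0.25), Ampd3 (1.22) and Rnf141 (0.40). Both runs broke in signals as deposited, where Usp2 (0.27), Rnf26 (0.11), Cbl (0.17), Sbf2 (0.10) and Rnf141 (0.23) were not called, and Sbf2 (0.05) and Rnf141 (0.17) also lost their calls with the mean of probe sets. The third run held the protocadherins Pcdhb11 (-1.78), Pcdhb17 (-0.59), Pcdhb19 (-0.30) and Pcdhb20 (-1.12), cell adhesion genes of 1 cluster whose near-identical sequences make probe sets hard to separate. This run broke too where Pcdhb19 lost its call. That was without the filter (-0.30), with the actin ratio (-0.32), and without CreER 36 h replicate 1 (-0.28) or CreER 60 h replicate 2 (-0.19). It was also so without no-Cre 36 h replicate 2 (-0.27) or no-Cre 60 h replicate 2 (-0.29).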

How the data were processed

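RNA of 16 mouse neural stem cell cultures was measured on Affymetrix arrays. The deposited values are linear signal intensities per probe set, made by the authors with MAS5, per the submitters' processing notes; the version and scaling target are not given in the sources used here. Of 22690 probe sets, 64 controls were left out, and genes were named from probe sets with 1 gene symbol. The 16 arrays were quantile normalized and log2(signal + 16) was taken, so folds of dim genes are understated. The brightest probe set stood for each of 12393 genes, and 7618 with a mean above the 40th percentile (signal 51.4) were tested. limma 3.58.1 in R 4.3.3 fitted 8 group means, with a trended prior, and p-values were adjusted by Benjamini-Hochberg over all 7618 genes. Data were simulated for the vehicle contrast over both times (7618 genes). There 63 of 67 genes changed by 1.5-fold and 66 of 67 changed by 2-fold were recovered, and 12 unchanged genes were called. Few genes were changed, in both directions alike. The simulation therefore does not show how the normalization acts where 55.2% of genes were called, as here. Quantile normalization assumes like distributions in all arrays, which sets the balance of small differences. Presence calls were not used. Precision is limited by having 2 arrays per group.

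Genes named were those with the 15 largest rises and falls among called genes without overlap between genotypes, the 5 largest of each among the brightest 10%, up to 5 members of each list with the smallest p, up to 6 genes in each direction for the differences between times and treatments, Esr1, and runs of neighbours with 2-fold genes. Other list members given with values, and Esco1, were chosen after their values were seen. The comparison, the gene lists and this rule were chosen with earlier results of these data known. Alternatives covered the scaling, pseudocount, filter, probe set rule, prior, arrays fitted, replicate number, actin ratio and each vehicle array left out. Promoter sequences are from RefSeq (GRCm38.p6).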

Additional observations from a re-analysis of the deposited data

Results flagged for a closer look

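The contrast between genotypes differed between times in 63 genes with a higher and 116 with a lower difference at 60 h, by limma's test of the interaction. The largest higher values (log2, 60 h minus 36 h) were 1.50 for Eno3, 1.38 for Cox6a2, 1.28 for A2m, 1.08 for Klf2, 1.03 for Pdia4 and 1.02 for Sdf2l1. The largest lower values were -1.83 for Arid5a, -1.56 for Triap1, -1.20 for Cit, -1.12 for Chac1, -1.09 for Kcnd3 and -1.04 for Erf. Of these, A2m lost its call in most settings tried and was 0.80 without CreER 36 h replicate 2. Pdia4 was 0.58, Cit -0.54 and Erf -0.64 with the mean of probe sets, each no longer past the threshold. Among list members chosen after their values were seen, the difference changed by -0.92 for Smc4, -0.87 for Pola1, -0.67 for Aurka, -0.64 for Mthfd2, -0.51 for Rrm1 and -0.38 for Atf4, and by 0.66 for Pdia6, 0.53 for Hsp90b1 and 0.41 for Hk1.

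The contrast differed between treatments in 690 genes with a higher and 773 with a lower difference under 4OHT. The largest higher values (4OHT minus vehicle) were 1.89 for Cryab, 1.75 for Pygm, 1.66 for Igfbp5, 1.64 for Cox8b, 1.58 for Gsn and 1.52 for Ptp4a3. The largest lower values were -1.14 for Car3, -1.0 for Crb3, -0.97 for Spata5, -0.94 for Lrr1, -0.91 for Blm and -0.90 for Serinc4. With 2 arrays per genotype, treatment and time, single arrays were not examined as outliers.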

How the results depend on the processing

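In signals as deposited the counts of called genes were 2631 over both times, 1865 at 36 h, 1328 at 60 h, 16 for the difference between times and 178 for that between treatments. The count for the difference between times was 81 with arrays scaled to a common median, 94 without the filter and 97 without the trend. Leaving out each vehicle array gave 3742 to 3921 genes over both times, 2259 to 3159 at 36 h, 2524 to 3336 at 60 h, 54 to 151 for times and 1166 to 1478 for treatments. Paip1 changed sign with a pseudocount of 4 (-1.36) and Nes with the mean of probe sets (0.15). Small differences that also changed sign were those of B2m (-0.07 as deposited, -0.01 with the mean of probe sets and -0.01 with the actin ratio), Fabp7 (-0.01 as deposited, -0.06 with the actin ratio, and -0.00 to 0.05 when any 1 vehicle array was left out) and Pkm (0.06 with arrays scaled to a common median). Apart from the scaling itself, the cause was not tested. Samples with the same replicate number did not deviate together (r -0.02 at 36 h and -0.00 at 60 h), and with the replicate number as a block 4205 genes were called over both times, 3111 at 36 h, 3357 at 60 h, 176 for times and 1468 for treatments. Signals under 51.4 limit the size of differences for dim genes.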
